A study of Mus musculus with 61 samples.

Results

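Amino acid transporters of activated T cells were examined as 9 genes of the 24421 listed in each count table, found by matching their symbols: Slc3a2, Slc7a5, Slc7a1, Slc7a6, Slc7a11, Slc1a4, Slc1a5, Slc38a1 and Slc38a2. The genes were chosen by name for their known role, and no measured value entered the rule. Earlier results of these data were known when they were chosen. The study asked how the substitutions Y665F and Y665H of STAT5B, a signal transducer that interleukins activate in T cells, change its transcriptional activity. Total RNA from 61 samples of C57BL/6 mice at 2 months of age was sequenced, in 17 groups.

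The CD4+ T cells made up 10 groups: naïve cells sorted from pooled lymph nodes and spleens were activated through the T-cell receptor and CD28, transduced with a retrovirus, kept for 48 h with IL-2 and sorted for CD4 and the GFP of the vector. The vector was empty or carried STAT5B, STAT5B N642H (an activating leukaemia mutation), STAT5B Y665F or STAT5B Y665H, in cells titled S5KO or WT, with 3 libraries in each of the 10 groups. S5KO cells are called null here: Cd4-Cre, which acts in cells of the T lineage, deleted the floxed Stat5a and Stat5b genes. The genotype label of all 30 CD4 libraries, WT-titled ones included, reads Stat5a/b flox/flox, so the WT control may carry floxed alleles without Cre. Splenic T cells of WT mice and of Stat5b Y665H or Y665F knock-in mice were isolated with a kit and kept for 24 h with IL-2 and IL-7, with 4 libraries for each genotype, and 3 further Y665F libraries had no interleukins. Spleens, titled splenocytes, gave 4 WT, 5 Y665H and 7 Y665F libraries, and the labels do not give the zygosity of the knock-ins.

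Amino acids cross the plasma membrane through solute carriers, and a T cell that leaves rest to divide takes up far more leucine, arginine, glutamine and serine to build protein, nucleotides and polyamines. Large neutral amino acids enter through a heterodimer of a light chain that carries the substrate and the heavy chain encoded by Slc3a2, and leucine that enters this way is known to feed the kinase complex mTORC1. Many of these genes are known targets of the transcription factors MYC and ATF4, and interleukin signals through STAT5 are known to raise nutrient uptake.

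Among the members, Slc3a2 encodes the CD98 heavy chain (4F2hc), which has no transport activity of its own and lies at chr19:8706882-8723369 on the minus strand of GRCm38. Its partners are the light chains Slc7a5 (LAT1, for leucine and other large neutral amino acids, chr8:121881150-121907694, minus strand), Slc7a6 (y+LAT2, an exchanger of arginine for neutral amino acids, chr8:106168857-106198706, plus strand) and Slc7a11 (xCT, which brings in cystine for glutathione, chr3:49892526-50443614, minus strand). Slc7a1 (CAT1, chr5:148327410-148399904, minus strand) takes up cationic amino acids such as arginine. Slc1a4 (ASCT1, chr11:20302180-20332713, minus strand) and Slc1a5 (ASCT2, chr7:16781340-16798274, plus strand) exchange small neutral amino acids, among them serine and, for Slc1a5, glutamine. Slc38a1 (SNAT1, chr15:96571418-96642913, minus strand) and Slc38a2 (SNAT2, chr15:96687392-96699730, minus strand) carry glutamine and other neutral amino acids with sodium. All loci are whole genes of the GENCODE annotation of that build, introns and untranslated regions included.

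Reads assigned to genes numbered 18825994 to 49850689 in the CD4 libraries, 24203179 to 43330536 in the spleens and 2017012 to 27394249 in the splenic T cells, where the shallowest were Y665H replicates 2, 1 and 4 and Y665F replicate 3 with interleukins. Values are given as CPM, the gene-assigned reads scaled to library size with TMM factors. Stat5b averaged 5.86 CPM in null cells with empty vector, 201 CPM in WT cells with empty vector and 217 to 315 CPM in the null groups that received a construct. In the CD4 libraries the summed CPM of 12 T-cell markers ranged from 3520 to 6010 and that of 6 B-cell markers reached at most 5.42. Splenic T-cell libraries of Y665F with interleukins stood apart among themselves: replicates 3 and 4 had T-cell marker sums of 1380 and 2130 CPM against 3610 and 3190 CPM in replicates 1 and 2. Replicates 3 and 4 also carried B-cell marker sums of 486 and 134 CPM and erythroid marker sums of 838 and 67.2 CPM, and the main member results in Y665F T cells are given with and without both libraries. In bulk RNA, fewer cells of a type and less RNA per cell cannot be told apart.

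Per kilobase of exons, the 9 transporters spanned a wide range in activated CD4+ cells, with Slc1a5 highest in each of the 10 groups and Slc7a11 lowest. Slc1a5 had a median of 103 CPM per kb over the 30 libraries (range 65.7 to 134), ahead of Slc7a5 with 47.6 (16.4 to 68.8) and Slc3a2 with 37.3 (27.8 to 45.6). Slc7a1, Slc38a1, Slc7a6 and Slc38a2 followed with medians of 19.8, 17.7, 16.1 and 14.5 CPM per kb, and Slc1a4 with 2.95. The 4 genes in the middle had overlapping ranges of libraries, so their order is not resolved. The ranking also depends on division by exon length, 17236 bases for Slc38a1 and 3708 for Slc7a5. In plain CPM, Slc38a1 averaged 337 and Slc7a5 82.9 in null cells with empty vector. In WT cells with N642H these means were 263 and 224 CPM. In null cells with empty vector or Y665H, Slc3a2 came ahead of Slc7a5 by mean level per kb. In the other 8 CD4 groups Slc7a5 came second.

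The order differed in the other samples, which were scaled separately. In splenic T cells Slc38a2 ranked first in all 4 groups, at 67.9 ± 6.21 CPM per kb (SD, n = 4) in WT cells and 30.5 ± 6.70 CPM per kb (SD, n = 3) in Y665F cells without interleukins. In WT spleens Slc38a2 at 34.6 ± 1.84 and Slc1a5 at 31.9 ± 5.20 CPM per kb (SD, n = 4) overlapped. Slc7a11 had a median of 9.05 CPM per kb in spleens (6.79 to 11.9), against 0.693 in splenic T cells (0.164 to 1.5) and 0.0272 in CD4+ cells (0.00593 to 0.0984). In CD4+ libraries Slc7a11 rested on 3 to 35 reads, so its fold changes there have wide intervals.

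**Figure D1:**
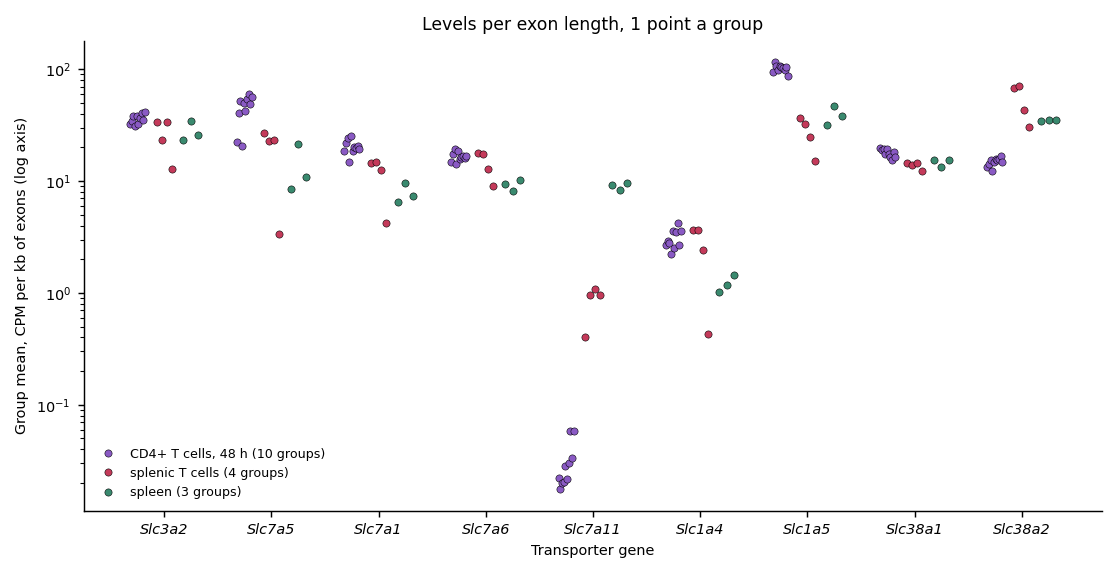
Mean level of each transporter in each of the 17 groups, in CPM per kb of exons on a log axis, with 1 point a group and the CD4, splenic T-cell and spleen groups in separate colours. Slc1a5 is highest in the 10 CD4 groups, and Slc7a11 is the gene whose CD4, splenic T-cell and spleen groups lie farthest apart.

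The comparison of constructs in null cells asked what each STAT5B form does where the endogenous proteins are missing. Slc7a5, the leucine-carrying light chain, rose with STAT5B, N642H and Y665F, and Slc7a6 rose with N642H and Y665F. Slc7a5 read 60.9, 83.0 and 105 CPM with empty vector, 168, 161 and 122 CPM with STAT5B, 215, 205 and 157 CPM with N642H, 199, 206 and 152 CPM with Y665F and 66.2, 92.0 and 73.7 CPM with Y665H. Every library with STAT5B, N642H or Y665F lay above every library with empty vector or Y665H, and the last pair of groups overlapped. By edgeR's quasi-likelihood test the log2 fold change of Slc7a5 over empty vector was 1.18 ± 0.20 (SE) with N642H (adjusted p = 0.000826), a 2.26-fold rise. With Y665F it was 1.14 ± 0.20 (adjusted p = 0.00137), and with STAT5B 0.85 ± 0.20 (adjusted p = 0.0377). With Y665H it was -0.08 ± 0.19 (adjusted p = 0.970), with a 95% interval of the fold from 0.724 to 1.23. The call for STAT5B was lost without any of empty vector replicate 1 (adjusted p = 0.186) or 2 (0.129) or STAT5B replicate 1 (0.185) or 2 (0.158).

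Slc7a6, the arginine exchanger, read 70.3, 65.3 and 66.2 CPM with empty vector, 91.8, 89.5 and 85.5 CPM with N642H and 88.5, 84.1 and 83.2 CPM with Y665F. The libraries with the activating forms all lay above those with empty vector, by a smaller step than for Slc7a5. The log2 fold change was 0.37 ± 0.10 with N642H (adjusted p = 0.0181) and 0.31 ± 0.10 with Y665F (adjusted p = 0.0482). The STAT5B libraries, at 87.4, 73.6 and 77.3 CPM, also all lay above empty vector (0.23 ± 0.10, edgeR, adjusted p = 0.255), and DESeq2 called that rise. Against STAT5B, Slc7a6 had a log2 fold change of 0.13 ± 0.10 with N642H and 0.08 ± 0.10 with Y665F. With N642H the call was lost without empty vector replicate 2 (adjusted p = 0.0699) or N642H replicate 1 (0.0586) or 2 (0.0737), and with Y665F without empty vector replicate 2 (0.148) or 3 (0.0987) or Y665F replicate 1 (0.171), 2 (0.0820) or 3 (0.0596).

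For Slc7a1, the arginine importer, the values were 207, 213 and 225 CPM with empty vector, 292, 305 and 248 CPM with N642H, 274, 313 and 287 CPM with Y665F and 150, 203 and 162 CPM with Y665H. The N642H and Y665F libraries lay above the empty vector ones and the Y665H libraries below them. Same-numbered replicates deviated together in these cells, and with the replicate number as a block, where 20.5% of genes passed with N642H and 18.4% with Y665F, Slc7a1 rose with N642H (log2 fold change 0.35, adjusted p = 0.0923 without the block and 0.0282 with it) and with Y665F (0.41, adjusted p = 0.0566 and 0.0118). With Y665H its log2 fold change over empty vector was -0.31 ± 0.13 (adjusted p = 0.896).

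**Figure D2:**
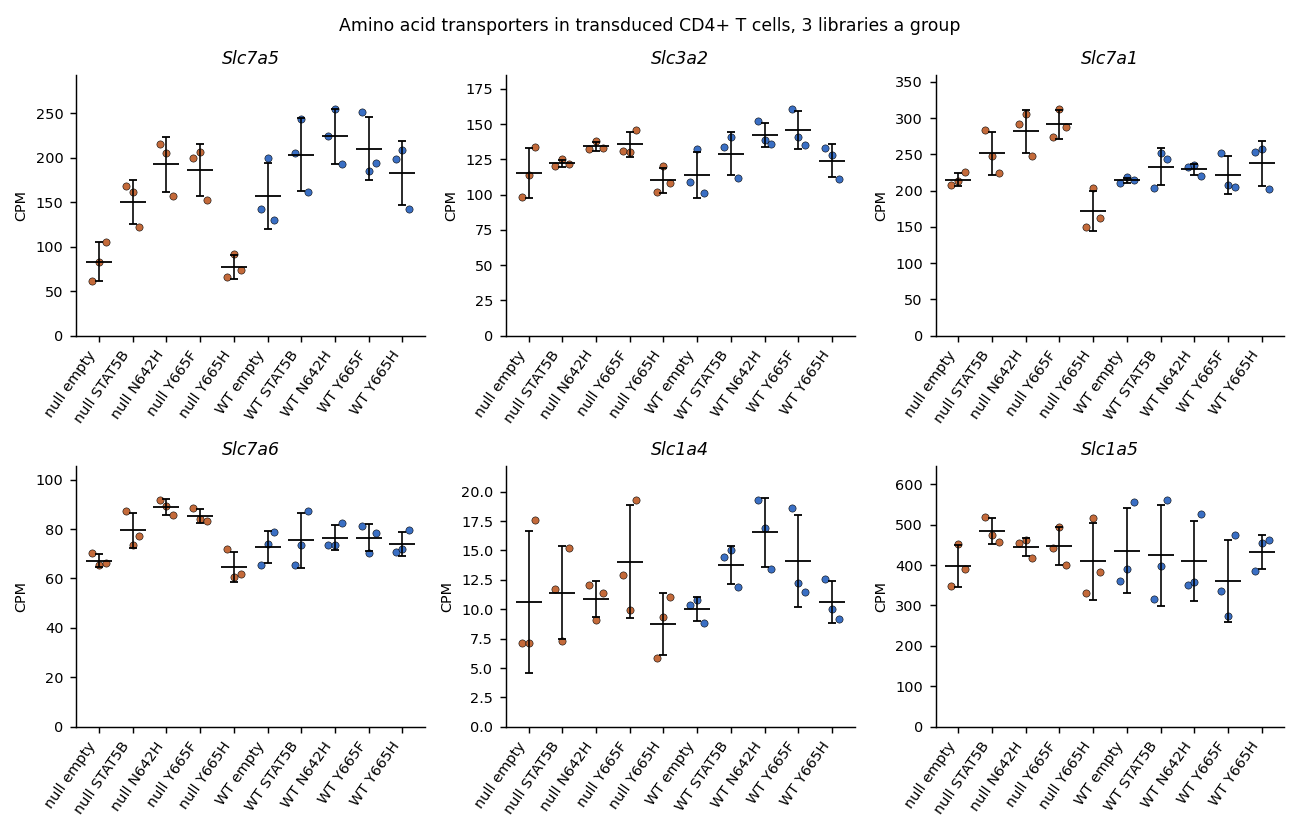
CPM of 6 transporters in the 30 libraries of transduced CD4+ T cells, with null groups at the left and WT groups at the right of each panel, 1 point a library, and bars for the group mean ± SD (n = 3). Slc7a5 in null cells sits at 122 CPM or more with STAT5B, N642H and Y665F and at 105 CPM or less with empty vector and Y665H.

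Slc3a2, the heavy chain that pairs with Slc7a5, moved less than its partner. It read 98.1, 114 and 134 CPM with empty vector, 132, 138 and 133 CPM with N642H and 131, 130 and 146 CPM with Y665F in null cells. The groups overlapped through empty vector replicate 3, and the log2 fold changes were 0.19 ± 0.11 with N642H (adjusted p = 0.330) and 0.21 ± 0.11 with Y665F (adjusted p = 0.292). The log2 ratio of Slc7a5 to Slc3a2 counts within a library, which is free of scaling between libraries, lay between -0.69 and -0.35 with empty vector and between -0.62 and -0.38 with Y665H. With STAT5B, N642H and Y665F it lay between 0.00 and 0.70, and in the 5 WT groups between 0.35 and 0.88. The balance between light and heavy chain transcripts thus lay in separate ranges for empty vector and Y665H on the one side and the other null groups on the other.

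The remaining 5 members passed the test in no comparison with empty vector in null cells. Slc1a5 read 349, 453 and 391 CPM with empty vector against 455, 461 and 418 CPM with N642H (log2 fold change 0.12 ± 0.15). Slc38a1 read 352, 357 and 303 CPM against 334, 368 and 300 CPM (-0.05 ± 0.12), and Slc38a2 read 112, 126 and 114 CPM against 138, 151 and 122 CPM (0.19 ± 0.12). The groups overlapped for each of these 3 genes. Slc1a4 and Slc7a11 were low, at most 19.3 and 0.759 CPM in any null library.

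Of all 20113 genes tested in null cells, 11.6% passed an adjusted p of 0.05 with N642H and 2.88% also passed a log2 fold change beyond 1. Among the 9 members 2 passed the first rule and 1, Slc7a5, the second. With Y665F the background was 9.58% and 2.37%, with the same counts of 2 and 1 among the members. STAT5B changed 1.52% of genes and 1 member. Y665H changed 0.0249% of genes and 0 members by edgeR, with 1 member at an unadjusted p under 0.05 and 0 by DESeq2. Members had a median log2 fold change of 0.19 with N642H and 0.31 with Y665F, beside 0.01 and -0.02 over all genes. The 4 comparisons share the empty vector libraries.

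The activating forms were also set against STAT5B itself. N642H differed from STAT5B at 0.0845% of genes and Y665F at 0.0199%, with 0 members by edgeR, 0 at an unadjusted p under 0.05 and 0 by DESeq2 in each. For Slc7a5 the fold of N642H over STAT5B was 1.26 with a 95% interval from 0.965 to 1.63, and that of Y665F over STAT5B 1.22 with an interval from 0.937 to 1.59. Y665H differed from STAT5B at 0.229% of genes and 0 members by edgeR, with 3 members at an unadjusted p under 0.05 and 3 by DESeq2 (Slc7a5, Slc7a1 and Slc7a6, all lower). Slc7a5 was 0.523-fold of its STAT5B level with Y665H (adjusted p = 0.0541, and 0.00361 with the replicate block), and Slc7a1 was 0.695-fold (adjusted p = 0.116, and 0.00868 with the block, where 4.18% of genes passed). The edgeR count became 1 without STAT5B replicate 3 (Slc7a5) and 2 without Y665H replicate 2 (Slc7a5 and Slc7a1).

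In WT cells, which keep their own STAT5 proteins, no member passed the test under any construct in the fit without a replicate block. Slc7a5 read 142, 199 and 130 CPM with empty vector, 205, 243 and 161 CPM with STAT5B, 224, 255 and 193 CPM with N642H, 251, 185 and 194 CPM with Y665F and 198, 208 and 142 CPM with Y665H. All groups overlapped with empty vector through its replicate 2. The log2 fold change was 0.53 ± 0.19 with N642H (adjusted p = 0.256) and 0.43 ± 0.19 with Y665F (adjusted p = 0.314).

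Slc1a4, an exchanger of serine and other small neutral amino acids, read 10.4, 10.8 and 8.86 CPM with empty vector, 19.3, 16.9 and 13.4 CPM with N642H and 18.6, 12.2 and 11.5 CPM with Y665F in WT cells. Both activating groups lay above empty vector without overlap, and the share of all genes that separated in this way was not counted. The STAT5B libraries, at 14.4, 15 and 11.9 CPM, also all lay above empty vector. The log2 fold change over empty vector was 0.74 ± 0.20 with N642H (adjusted p = 0.0816) and 0.50 ± 0.20 with Y665F (adjusted p = 0.254). With STAT5B it was 0.47 ± 0.19. Against STAT5B, Slc1a4 had a log2 fold change of 0.27 ± 0.19 with N642H and 0.03 ± 0.19 with Y665F. Slc3a2 read 109, 132 and 101 CPM with empty vector against 152, 139 and 136 CPM with N642H and 161, 141 and 135 CPM with Y665F, again without overlap. Its log2 fold changes were 0.34 ± 0.12 (adjusted p = 0.244) and 0.37 ± 0.12 (adjusted p = 0.163).

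Same-numbered replicates deviated together in WT cells as well. With the replicate block, where 8.28% of genes passed with N642H and 12.0% with Y665F, 3 members rose with N642H: Slc7a5 (adjusted p = 0.00719), Slc3a2 (0.0261) and Slc1a4 (0.000457). The same 3 rose with Y665F under the block, with adjusted p = 0.0206, 0.0140 and 0.0165. Without the block, N642H changed 1.52% of 20509 genes and 0 members, with 4 members at an unadjusted p under 0.05 and 1 by DESeq2 (Slc1a4), and edgeR called Slc1a4 when N642H replicate 3 was left out. Y665F changed 1.26% of genes and 0 members, with 4 at an unadjusted p under 0.05 and 1 by DESeq2 (Slc3a2). STAT5B changed 0.00975% of genes and 0 members (1 at an unadjusted p under 0.05, 0 by DESeq2), and Y665H 0.00488% and 0 members (0 and 0). Against STAT5B, N642H differed at 0.00488% of genes and Y665F at 0%, each with 0 members by edgeR, 0 at an unadjusted p under 0.05 and 0 by DESeq2.

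Null and WT cells with empty vector were compared next, to show the level each background starts from. Slc7a5 was lower in null cells, at 82.9 against 157 CPM, a log2 fold change of -0.92 ± 0.21 (edgeR, adjusted p = 0.00277). All 3 null libraries lay below all 3 WT libraries. It was the only member of 9 that passed, where 13.9% of 21975 genes did, and the median log2 fold change over all genes was -0.12. Slc3a2 was at 115 and 114 CPM, with a 95% interval of the fold from 0.863 to 1.19, and Slc38a2 at 117 and 140 CPM (-0.26 ± 0.13, adjusted p = 0.200). With STAT5B returned to null cells, Slc7a5 stood at 150 CPM against the same 157 CPM, a fold of 0.958 with an interval from 0.726 to 1.26. That comparison passed 1.11% of genes and 0 members, 0 at an unadjusted p under 0.05 and 0 by DESeq2.

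Whether the response to an activating form differed between backgrounds was tested as an interaction. For Slc7a5 the response to N642H was 1.63-fold larger in null than in WT cells (95% interval 1.1 to 2.41, adjusted p = 0.398) and that to Y665F 1.68-fold larger (1.13 to 2.49, adjusted p = 0.415). For Slc1a4 the ratio was 0.622 with N642H (0.348 to 1.11) and 0.941 with Y665F (0.527 to 1.68). The interaction passed at 0.387% of genes for N642H and 0.478% for Y665F, and at 0 members in each, beside median interaction terms over all genes of 0.11 and 0.07 on the log2 scale, with 2 members at an unadjusted p under 0.05 and 0 by DESeq2 in each. In this fit without a replicate term, the larger fold of Slc7a5 in null cells was therefore not separated from its WT fold after adjustment over all genes. A replicate block shared by both backgrounds, where 1.48% and 1.25% of genes passed for N642H and Y665F, also left 0 members. Same-numbered replicates deviated together within each background, and a block within each background was not fitted.

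Across the 30 CD4 libraries, the genes whose log2 CPM followed Slc7a5 most closely, among the 11459 genes that averaged 1 CPM or more, were Shmt2 (Pearson r = 0.978), Csrnp1 (0.957), Naf1 (0.954), Hyou1 (0.951) and Map2k3 (0.948). Over the 10 group means r was 0.994, 0.981, 0.987, 0.994 and 0.976 in the same order. Shmt2 encodes the mitochondrial serine hydroxymethyltransferase. These libraries share constructs and backgrounds, so the correlations describe a common pattern over the groups. Of the other members, Slc3a2 had r = 0.77 with Slc7a5, Slc38a2 0.71 and Slc7a1 0.64, while Slc1a5 had 0.01 and Slc38a1 -0.24.

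Genes that act on the same amino acids were counted alongside in null cells, where 11.6% of all genes passed with N642H and 9.58% with Y665F. Of 20 cytosolic aminoacyl-tRNA synthetases, which load amino acids onto tRNAs, 14 rose and 0 fell with N642H and likewise with Y665F, with a median log2 fold change of 0.41 in each. Of 23 genes of the ATF4 amino acid response, 6 rose with N642H and 5 with Y665F and 0 fell. Among these Atf3, a stress-induced transcription factor, rose by 2.32 ± 0.54 with N642H and by 2.13 ± 0.54 with Y665F on the log2 scale. Cth, which makes cysteine, rose by 1.04 ± 0.24 and 1.37 ± 0.24, and Phgdh, the first enzyme of serine synthesis, by 1.01 ± 0.20 with each. Atf3 and Cth rose in WT cells too, by 2.33 ± 0.45 and 1.40 ± 0.23 with N642H.

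Of 25 genes of amino acid sensing by mTORC1, 2 rose (Rragd and Fnip1) and 2 fell (the sestrins Sesn1 and Sesn3) with either activating form. Of all genes 11.6% passed with N642H and 9.58% with Y665F. Rragd, a GTPase that recruits mTORC1 to the lysosome, rose by 2.43 ± 0.21 with N642H and 2.41 ± 0.21 with Y665F on the log2 scale, from 6.56 CPM to 35.3 and 34.8 CPM. Of 18 enzymes of glutamine, branched-chain amino acid, glutathione and polyamine metabolism 5 rose and 0 fell with each form, led by Srm, spermidine synthase (1.23 ± 0.17 and 1.17 ± 0.17). Of 7 transcription factors reported to act on these transporters 2 rose, Stat5b, which the vector carries, and Myc. Myc rose by 1.24 ± 0.18 with N642H and 1.13 ± 0.18 with Y665F, and Il2ra, the IL-2 receptor alpha chain, by 2.95 ± 0.22 and 2.82 ± 0.22. Of 14 genes of T-cell activation and proliferation 4 rose with N642H and 3 with Y665F. Of 32 other amino acid transporters tested, 0 rose and 2 fell with N642H, and 0 rose and 1 fell with Y665F. Of all 20113 genes 1200 fell with N642H and 889 with Y665F. Slc38a9, a lysosomal arginine sensor, fell with both (-0.73 ± 0.17 and -0.68 ± 0.17), and Slc43a2 with N642H (-0.50 ± 0.13).

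The T-cell marker list moved with the same comparison, with 1 of 12 markers higher and 7 lower with N642H and sums of 4320 to 4630 CPM against 5200 to 6010 CPM with empty vector. Its part in the transporter values was not tested. With Y665H, 0 genes of the synthetase, ATF4 and mTORC1 lists passed by edgeR. Between empty-vector cells, where 13.9% of all genes passed, 8 of 20 synthetases were lower and 0 higher in null than in WT cells. Phgdh was lower by a log2 fold change of -1.16 ± 0.21, Shmt2 by -0.70 ± 0.14 and Rragd by -2.28 ± 0.24.

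**Figure D3:**
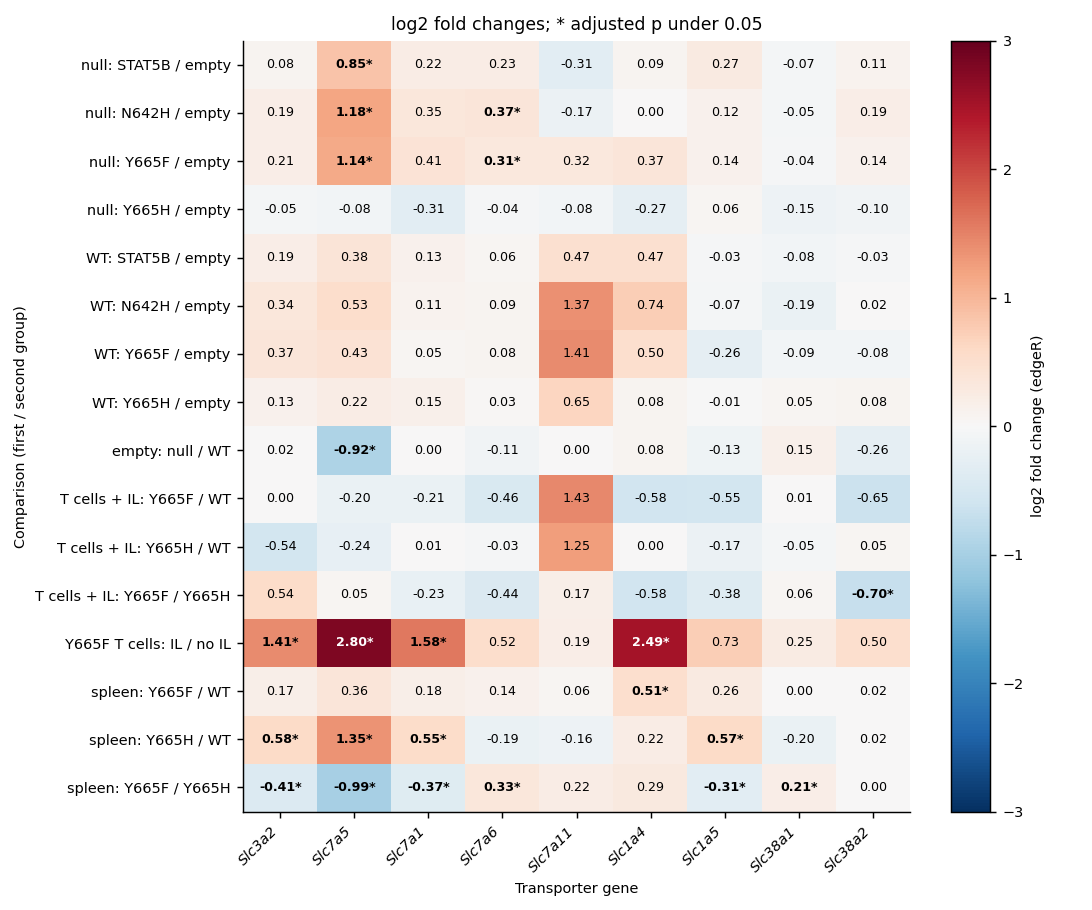
Log2 fold change of each transporter (columns) in 16 comparisons (rows, first group over second), from edgeR, with red for higher and blue for lower and a star where the adjusted p was under 0.05. Slc7a5 has the deepest colour, at 2.80 with against without interleukins and 1.35 in Y665H over WT spleens, and Slc38a1 stays pale throughout.

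The splenic T cells allowed the transporters to be compared with and without interleukins in Y665F cells. Slc7a5, Slc1a4, Slc7a1 and Slc3a2 rose with interleukins. Slc7a5 read 9.42, 17.9 and 9.99 CPM without interleukins and 94.4, 122, 58.6 and 72.2 CPM with them. Slc1a4 read 1.71, 1.83 and 1.54 CPM against 10.2, 14.9, 8.23 and 4.73 CPM. Slc7a1 read 39.7, 52.5 and 52.9 CPM against 171, 200, 90.3 and 118 CPM. Slc3a2, the common heavy chain, read 44.9, 43.4 and 47.2 CPM against 136, 144, 93.0 and 105 CPM. For all 4 genes every library with interleukins lay above every library without, and within the treated group replicates 3 and 4 were the lowest for Slc7a5, Slc1a4, Slc7a1 and Slc3a2.

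In fold terms Slc7a5 was 6.98-fold higher with interleukins (log2 fold change 2.80 ± 0.34, edgeR, adjusted p = 1.21e-05) and Slc1a4 5.62-fold (2.49 ± 0.36, adjusted p = 0.0001). Slc7a1 was 3.0-fold higher (1.58 ± 0.24, adjusted p = 0.000239) and Slc3a2 2.65-fold (1.41 ± 0.23, adjusted p = 0.000481). The log2 ratio of Slc7a5 to Slc3a2 counts lay between -2.25 and -1.27 without interleukins and between -0.67 and 0.45 in the 12 libraries with them. Of all 22313 genes, 3.85% passed the adjusted p and 2.97% also a log2 fold change beyond 1, and 4 of 9 members passed each rule. The median log2 fold change was 0.73 over the members and -0.13 over all genes.

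The other 5 members did not pass. Slc1a5, the glutamine exchanger, read 45.9, 66.5 and 75.0 CPM without and 108, 130, 80.5 and 95.4 CPM with interleukins (log2 fold change 0.73 ± 0.25, adjusted p = 0.122), without overlap. Slc7a6 had a log2 fold change of 0.52 ± 0.23 (adjusted p = 0.242), Slc38a2 of 0.50 ± 0.21 (adjusted p = 0.221), Slc38a1 of 0.25 ± 0.19 (adjusted p = 0.499) and Slc7a11 of 0.19 ± 0.49 (adjusted p = 0.860), each with overlapping groups. When Y665F replicates 3 and 4 with interleukins were left out together, 7.02% of genes and 7 members passed, adding Slc7a6, Slc1a5 and Slc38a2, and the folds were 8.67 for Slc7a5, 7.35 for Slc1a4, 3.83 for Slc7a1 and 3.1 for Slc3a2. According to the study, T cells without interleukins were sequenced directly after isolation, so time in culture and interleukins cannot be told apart. Rows that name no gene took 77.7 to 85.7% of reads without interleukins, 84.0 and 79.6% in replicates 3 and 4 with them and 67.6 and 72.8% in replicates 1 and 2, and the part of this share was not tested.

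Promoter sequences from RefSeq (GRCm38.p6, 250 bases before to 50 bases after a transcript start) were matched for 6 of the 9 members, with 8 promoters. Slc7a5, Slc1a5 and Slc38a1 had no entry. Searched on both strands were TGATGCAA (TTGCATCA on the other strand), a composite site of C/EBP and ATF factors that ATF4 is known to bind, TTCNNNGAA, the core of sites that STAT proteins bind, and CACGTG, an E-box that MYC binds. Of 32851 promoters of the same length in mouse, 0.895% held the first, 8.30% the second and 7.15% the third. Slc1a4, which rose with interleukins, and Slc7a11, which did not pass, both held the composite letters. Slc7a1, at the more internal of its 2 starts, and Slc7a11 held the STAT letters, and the Slc3a2, Slc7a6 and Slc38a2 windows held none of the 3 motifs. The only Slc3a2 window lay inside the gene, which on the minus strand begins at chr19:8723369. The sequence before that outer start was not searched. Slc1a4, Slc7a11, Slc7a1 and Slc3a2 are printed 5′ to 3′ to show this contrast, all on the minus strand, with motif letters in capitals. Their windows were chr11:20332664-20332963, chr3:50443564-50443863, chr5:148392766-148393065 and chr19:8713848-8714147.
Slc1a4: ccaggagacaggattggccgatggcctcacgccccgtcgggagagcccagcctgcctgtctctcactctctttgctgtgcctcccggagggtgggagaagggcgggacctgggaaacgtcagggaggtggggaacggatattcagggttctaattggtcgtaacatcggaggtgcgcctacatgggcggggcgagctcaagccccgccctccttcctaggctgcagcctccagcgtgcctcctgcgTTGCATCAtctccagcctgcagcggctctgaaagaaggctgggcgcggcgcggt
Slc7a11: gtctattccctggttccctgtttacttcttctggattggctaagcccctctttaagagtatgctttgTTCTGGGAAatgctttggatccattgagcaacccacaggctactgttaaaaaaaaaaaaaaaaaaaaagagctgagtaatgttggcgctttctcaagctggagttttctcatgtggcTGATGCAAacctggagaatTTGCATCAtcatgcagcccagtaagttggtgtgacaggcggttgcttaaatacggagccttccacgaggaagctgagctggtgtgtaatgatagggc
Slc7a1: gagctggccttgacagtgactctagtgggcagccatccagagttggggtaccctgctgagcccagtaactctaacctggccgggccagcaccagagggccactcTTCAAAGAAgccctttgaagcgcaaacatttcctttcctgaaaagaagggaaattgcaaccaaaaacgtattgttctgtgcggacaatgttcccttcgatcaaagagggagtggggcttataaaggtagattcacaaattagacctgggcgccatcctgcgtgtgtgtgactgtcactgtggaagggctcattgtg
Slc3a2: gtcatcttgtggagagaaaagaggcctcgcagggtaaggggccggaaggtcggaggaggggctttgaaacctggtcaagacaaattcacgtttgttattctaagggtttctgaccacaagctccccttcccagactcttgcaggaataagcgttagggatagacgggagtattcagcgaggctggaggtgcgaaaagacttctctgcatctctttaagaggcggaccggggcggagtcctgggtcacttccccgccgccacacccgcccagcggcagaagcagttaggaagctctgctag
Counted from the transcript start, the composite letters began at -4 in Slc1a4 and at -66 and -47 in Slc7a11, and the STAT letters at -183 in Slc7a11 and -146 in Slc7a1. A match of letters is a description of the window and does not show binding.

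Pathway genes moved with the transporters in this comparison, in which 3.85% of all genes passed. Of 20 synthetases 16 rose and 0 fell (median log2 fold change 1.13), among them Wars (2.28 ± 0.25), Cars (1.86 ± 0.24) and Aars (1.83 ± 0.27). Of 23 ATF4 response genes 10 rose and 0 fell, led by Asns, asparagine synthetase (3.60 ± 0.41, from 2.69 to 32.6 CPM), Chac1, which degrades glutathione (3.47 ± 0.51), and Psat1, an enzyme of serine synthesis (3.42 ± 0.30). Of 25 mTORC1 genes 2 rose, Rragd (2.02 ± 0.28) and Fnip1 (1.06 ± 0.25), and Sesn1, a sestrin, fell by 1.07 ± 0.22 on the log2 scale. Of 19 metabolic enzymes 5 rose, including Srm (2.93 ± 0.52), Bcat1, which transaminates branched-chain amino acids (2.28 ± 0.33), and Got1 (1.34 ± 0.25).

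Among 32 other transporters 1 rose, the glycine transporter Slc6a9 (2.98 ± 0.61, from 0.656 to 5.52 CPM), and 1 fell, Slc43a2 (-0.76 ± 0.20). Myc rose by 1.82 ± 0.29, and 10 of 14 activation and proliferation genes rose, including Tnfrsf9 (2.89 ± 0.41), Il2ra (2.35 ± 0.37) and Top2a (2.03 ± 0.39). Of 12 T-cell markers 1 was higher and 1 lower, with a median of 0.02. Without Y665F replicates 3 and 4, where 7.02% of all genes passed, 19 synthetases and 12 ATF4 genes rose, and 1 ATF4 gene fell. The T-cell marker sums ranged from 1380 to 3610 CPM with and 1980 to 3100 CPM without interleukins.

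**Figure D4:**
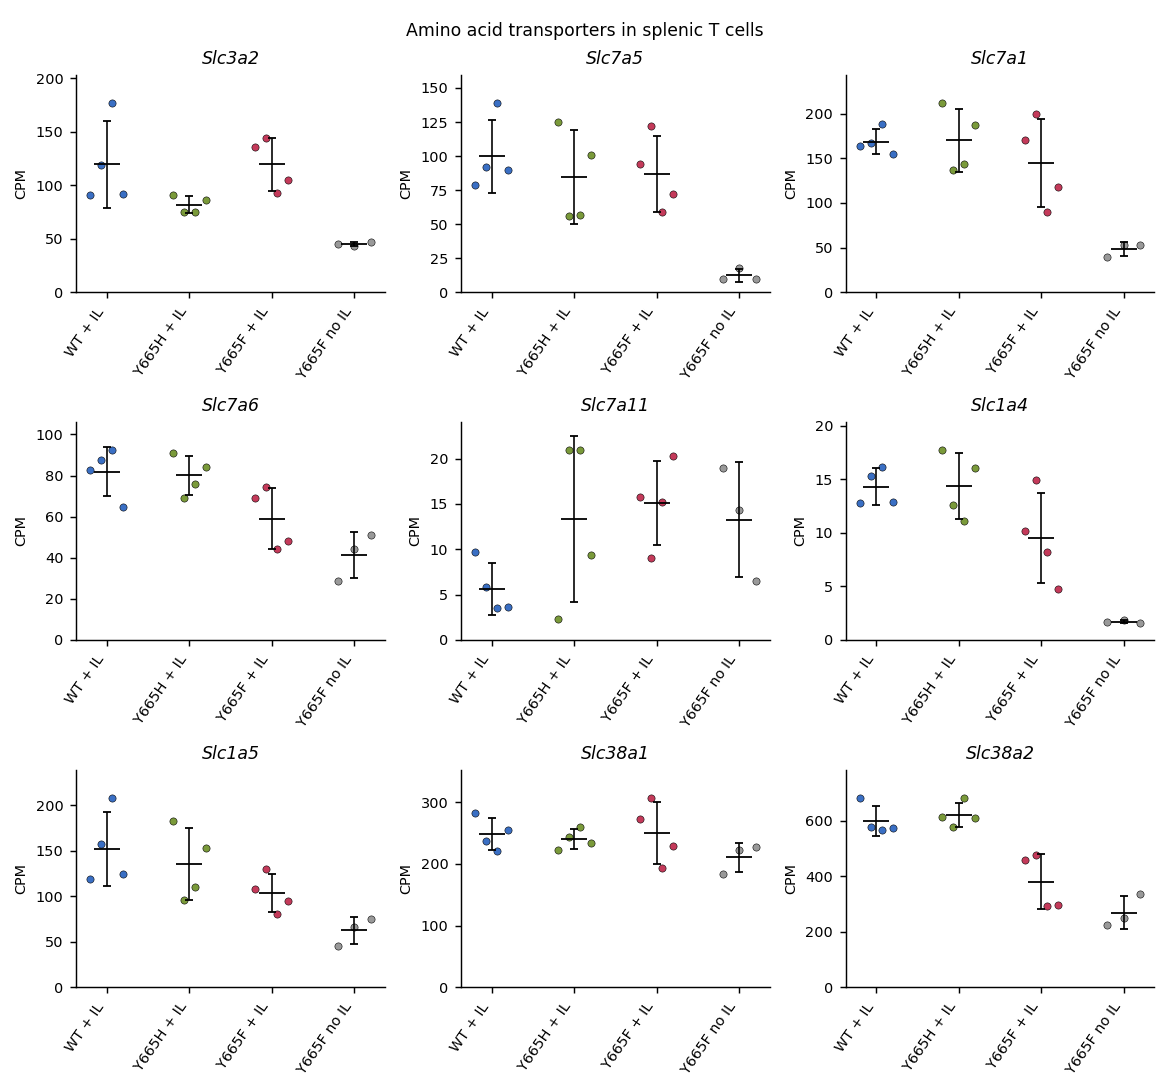
CPM of the 9 transporters in 15 libraries of splenic T cells, 1 point a library, with bars for the group mean ± SD (n = 4 with interleukins, n = 3 without). Slc7a5 without interleukins stays at 17.9 CPM or less while all 12 libraries with interleukins lie at 55.9 CPM or more.

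Among splenic T cells with interleukins, the knock-in genotypes differed at Slc38a2, the sodium-coupled glutamine transporter that adapts to amino acid supply. Slc38a2 read 682, 579, 566 and 573 CPM in WT, 613, 578, 682 and 610 CPM in Y665H and 457, 475, 293 and 298 CPM in Y665F. All Y665F libraries lay below all others, with replicates 3 and 4 lowest. Its log2 fold change was -0.70 ± 0.19 against Y665H (edgeR, adjusted p = 0.0295) and -0.65 ± 0.19 against WT (adjusted p = 0.0784). The call against Y665H was lost without Y665H replicate 1 (adjusted p = 0.0917), 3 (0.0612) or 4 (0.128) or Y665F replicate 3 (0.0938) or 4 (0.114), and without Y665F replicates 3 and 4 together the log2 fold change was -0.41 (adjusted p = 0.364) against Y665H and -0.36 (adjusted p = 0.850) against WT. Relative to the T-cell marker list it was -0.24. The log2 ratio of Slc38a2 to Slc38a1 counts, read within each library, lay between 0.38 and 0.74 in Y665F against 1.17 to 1.35 in WT and 1.25 to 1.46 in Y665H, so the groups stayed separate in this ratio for replicates 1 and 2 as well.

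Slc3a2 in these cells read 91.1, 119, 177 and 91.5 CPM in WT, 91.4, 74.9, 75.3 and 86.6 CPM in Y665H and 136, 144, 93.0 and 105 CPM in Y665F. Y665F lay above Y665H in every library, with a log2 fold change of 0.54 ± 0.21 (adjusted p = 0.128, and 0.77 with 0.0867 without replicates 3 and 4), and WT overlapped both. Slc7a11 read 9.65, 5.82, 3.46 and 3.67 CPM in WT, 2.28, 20.9, 20.9 and 9.32 CPM in Y665H and 15.8, 8.99, 15.2 and 20.3 CPM in Y665F. The fold over WT was 2.69 in Y665F (adjusted p = 0.103), 2.22 in Y665F without replicates 3 and 4 (adjusted p = 0.813) and 2.38 in Y665H (adjusted p = 0.454), and the groups overlapped. In the same order of Y665H libraries macrophage markers summed to 3.71, 79.2, 89.2 and 32.2 CPM and neutrophil markers to 19.7, 43.7, 64.6 and 29.0 CPM, against 21.0 to 29.6 and 5.92 to 12.4 CPM in WT. Among the Y665H libraries the Slc7a11 values were high where these sums were high. In Y665F the sums were 30.8, 17.2, 22.3 and 29.7 CPM for macrophage and 65.9, 66.8, 259 and 65.1 CPM for neutrophil markers. The macrophage sums there were thus near those of WT. The WT library with the highest Slc7a11, replicate 1, had the lowest macrophage sum of its group (21.0 CPM) and the highest neutrophil sum (12.4 CPM). The part of these cells in the Slc7a11 values was not tested. Slc7a5 averaged 99.8, 84.5 and 86.9 CPM in WT, Y665H and Y665F, with a 95% interval of the Y665F over WT fold from 0.601 to 1.27, and a fold of 1.08 without Y665F replicates 3 and 4.

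Between Y665F and Y665H, where the median log2 fold change of all genes was 0.13, 6.18% of genes and 1 member, Slc38a2, passed, with 3 members at an unadjusted p under 0.05 and 2 by DESeq2 (Slc3a2 and Slc38a2). Between Y665F and WT, 1.87% of genes and 0 members passed, with 4 at an unadjusted p under 0.05 and 2 by DESeq2 (Slc7a11 and Slc38a2). Without Y665F replicates 3 and 4 together 2.26% of genes passed against Y665H and 0.0226% against WT, with 0 members in each by edgeR and 2 and 1 members at an unadjusted p under 0.05. The edgeR count against WT was 1 without WT replicate 1 (Slc7a11) or without Y665F replicate 2 (Slc38a2). Between Y665H and WT, with a median of -0.11 over all genes, 0.0762% of genes and 0 members passed, with 2 at an unadjusted p under 0.05 and 0 by DESeq2. Sums of B-cell, erythroid and neutrophil markers reached 486, 838 and 259 CPM in Y665F libraries against at most 73.8, 33.6 and 12.4 CPM in WT. Reads on rows that name no gene were 67.6 to 84.0% in Y665F and 63.9 to 72.6% in WT. The part of either in these differences was not tested.

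Among the pathway lists, 0 of 20 synthetases passed by edgeR between Y665F and Y665H, where 6.18% of all genes did. Of 23 ATF4 genes 4 were higher in Y665F, including Cth (2.29 ± 0.61), Chac1 (2.00 ± 0.45) and Stc2 (1.68 ± 0.45) on the log2 scale. Slc43a1, a transporter of large neutral amino acids, was higher (1.97 ± 0.55) and the lysosomal Slc36a4 lower (-1.07 ± 0.25). Odc1, ornithine decarboxylase of polyamine synthesis, rose by 1.99 ± 0.29 and Bcat1 by 1.65 ± 0.30, while Nfe2l2, a regulator of Slc7a11, was lower by a log2 fold change of -1.12 ± 0.24. Of the activation and proliferation genes 8 of 14 were higher in Y665F, led by Tnfrsf9 (2.75 ± 0.37), Mki67 (2.16 ± 0.41) and Top2a (2.04 ± 0.35). Sesn1 was lower in Y665F than in Y665H (-1.12 ± 0.20) and than in WT (-1.11 ± 0.20). Without Y665F replicates 3 and 4, against Y665H 4 ATF4 genes and 7 activation and proliferation genes were still called higher and 0 of 32 other transporters passed by edgeR, and against WT 0 genes of the pathway lists passed by edgeR.

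In spleens 4 of the 9 members, Slc7a5, Slc3a2, Slc7a1 and Slc1a5, were higher in Y665H than in WT. Slc7a5 read 28.9, 23.7, 43.2 and 29.7 CPM in WT and 36.2, 89.5, 97.6, 76.3 and 102 CPM in Y665H, and ranged from 31.7 to 51.6 CPM in Y665F with a median of 33.8 CPM. Y665H replicates 2 to 5 lay above every other spleen, and replicate 1 lay among the WT and Y665F values. The log2 fold change was 1.35 ± 0.26 for Y665H over WT (edgeR, adjusted p = 0.00241), a 2.56-fold difference, and -0.99 ± 0.21 for Y665F against Y665H (adjusted p = 0.00242).

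Slc3a2 read 80.0, 76.6, 86.6 and 84.3 CPM in WT and 94.9, 142, 127, 110 and 139 CPM in Y665H, and ranged from 85.0 to 101 CPM in Y665F with a median of 88.4 CPM. Slc7a1 read 72.9, 72.5, 79.4 and 75.7 CPM in WT and 90.5, 127, 117, 93.9 and 121 CPM in Y665H. Slc1a5 read 111, 120, 159 and 142 CPM in WT and 166, 178, 221, 181 and 240 CPM in Y665H. For these 3 genes all Y665H spleens lay above all WT spleens, replicate 1 included. The log2 fold changes over WT were 0.58 ± 0.10 for Slc3a2 (adjusted p = 0.00166), 0.55 ± 0.10 for Slc7a1 (adjusted p = 0.00208) and 0.57 ± 0.12 for Slc1a5 (adjusted p = 0.00363). Without Y665H replicate 1 the Slc7a5 value became 1.57 and the Slc3a2 value 0.69, and all 4 calls held with any other spleen left out.

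Between Y665H and WT, 19.8% of 19418 genes passed and 4.37% also a log2 fold change beyond 1. Of the members 4 passed the first rule and 1, Slc7a5, the second. Between Y665F and WT 12.2% of genes and 1 member passed, Slc1a4, which read 3.78, 3.31, 4.71 and 4.08 CPM in WT and 5.13 to 6.07 CPM in Y665F with a median of 5.61 CPM. The groups did not overlap, and the log2 fold change was 0.51 ± 0.12 (adjusted p = 0.0102). Without WT replicate 3 Slc1a5 passed as well.

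Between Y665F and Y665H 25.8% of genes passed and 6 of 9 members, of which 4 were lower in Y665F (Slc3a2, Slc7a5, Slc7a1 and Slc1a5) and 2 higher (Slc7a6 and Slc38a1). Slc7a6 read 44.3, 34.4, 34.7, 38.2 and 34.9 CPM in Y665H and 40.0 to 55.8 CPM in Y665F with a median of 46.7 CPM (log2 fold change 0.33 ± 0.09, adjusted p = 0.00941). Slc38a1 read 269, 212, 212, 237 and 216 CPM against 247 to 283 CPM with a median of 260 CPM (0.21 ± 0.06, adjusted p = 0.0233). Both overlapped only through Y665H replicate 1. Slc38a2 was at 305, 310 and 311 CPM in WT, Y665H and Y665F, with a 95% interval of the Y665H over WT fold from 0.924 to 1.11. The call of Slc1a5 (-0.31, adjusted p = 0.0309) was lost without Y665H replicate 3 (0.101) or 5 (0.122) or Y665F replicate 2 (0.0623), 3 (0.0569), 4 (0.0608) or 6 (0.0591), and that of Slc38a1 without Y665H replicate 2 (0.0722) or Y665F replicate 5 (0.0586) or 7 (0.0618).

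Markers of cell types differed among the same spleens. Of the 8 listed erythroid markers, globin genes were at 0.145 CPM or less and add almost nothing to the sum. That sum was 314 CPM in Y665H replicate 1 and 1700 to 2370 CPM in replicates 2 to 5, against 501 to 948 CPM in WT and 213 to 690 CPM in Y665F. The 12 T-cell markers summed to 819 to 946 CPM in WT, 542 to 802 CPM in Y665H and 1040 to 1370 CPM in Y665F, and neutrophil markers to 165 to 263, 97.0 to 1230 and 305 to 762 CPM. Slc7a5 and the erythroid sum were thus high in the same 4 spleens. Of 6 neutrophil markers 6 and of 2 plasma cell markers 2 were higher in Y665H than in WT spleens, while 8 of 12 T-cell, 3 of 3 NK and 2 of 6 B-cell markers were lower and 0 of 6 macrophage markers passed by edgeR. Of all genes 19.8% passed there. The part of cell composition in these values was not tested.

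**Figure D5:**
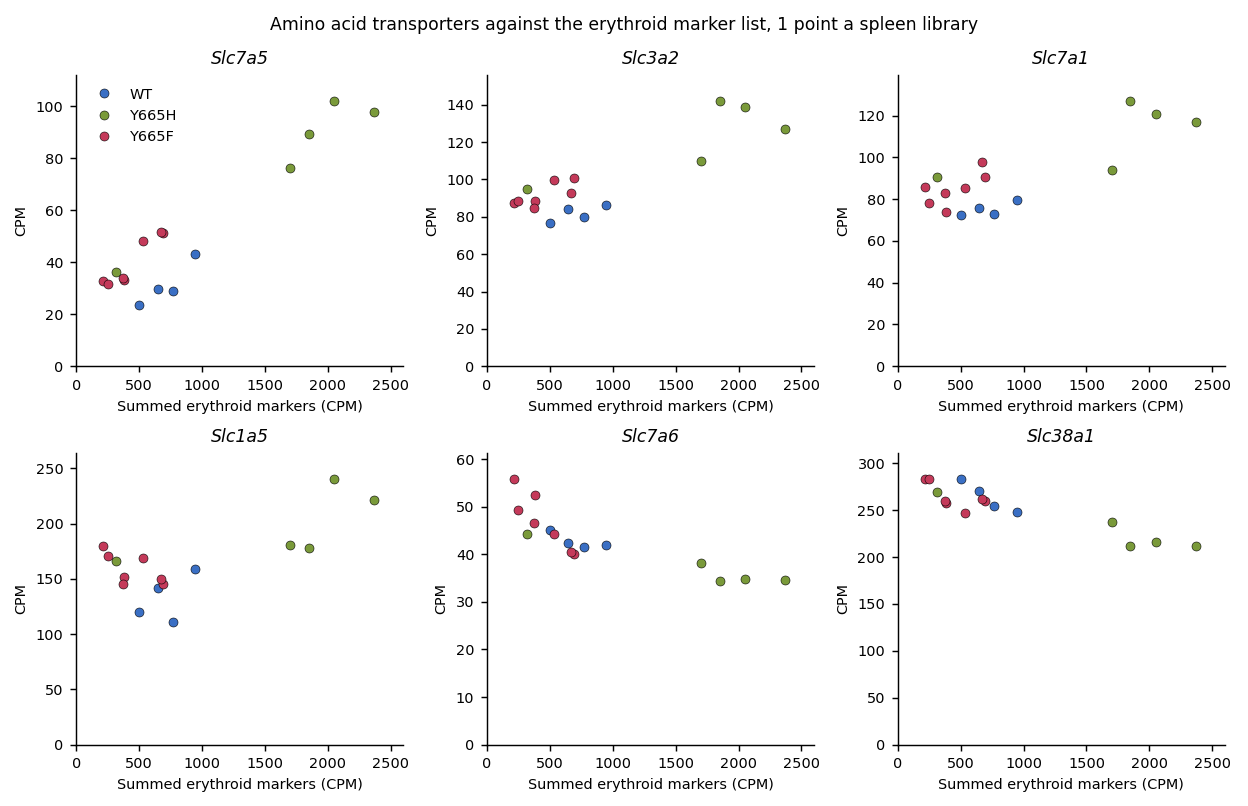
CPM of 6 transporters against the summed CPM of erythroid markers, 1 point for each of 16 spleens coloured by genotype. The 4 Y665H spleens with sums of 1700 CPM or more hold the highest Slc7a5 values, at 76.3 CPM or more, and the lowest Slc7a6 values, at 38.2 CPM or less.

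Of 32 other amino acid transporters 6 rose and 0 fell in Y665H over WT spleens, where 2079 of all 19418 genes rose and 1758 fell. Between Y665F and Y665H 2 of these transporters were higher and 8 lower in Y665F, beside 2040 and 2975 of all genes. Those with the largest fall from Y665H to Y665F were Slc6a9 (-2.06 ± 0.34, 73.4 to 17.6 CPM), the glycine carrier of erythroid cells, Slc43a1 (-1.84 ± 0.36) and the glutamine carrier Slc38a5 (-1.80 ± 0.43). Synthetases were higher in Y665H than in WT at 7 of 20, beside 2079 of all 19418 genes. They were lower in Y665F than in Y665H at 4 of 20, near the share of all genes (2975 of 19418). Of 23 ATF4 genes 9 rose in Y665H over WT and 11 were lower in Y665F than in Y665H, led by Asns (-1.15 ± 0.39).

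Fnip2 (-1.09 ± 0.22), Gclm, a subunit of glutamate-cysteine ligase (-1.28 ± 0.31), and Odc1 (-1.26 ± 0.24) were lower in Y665F than in Y665H spleens. Among activation and proliferation genes 5 were higher and 8 lower in Y665F, in a comparison that 25.8% of all genes passed. The transferrin receptor Tfrc (-1.67 ± 0.33), Mki67 (-1.64 ± 0.32) and Cdk1 (-1.33 ± 0.26) were lower, and Il2ra was higher (1.64 ± 0.18, 11.1 to 34.5 CPM). Myc was 0.59 ± 0.10 higher on the log2 scale in Y665F than in WT spleens, where 3 of 7 listed transcription factors rose and 1 fell. In that comparison 12.2% of all genes passed.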

How the data were processed

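RNA was measured in 61 libraries made with a stranded total RNA kit after removal of ribosomal RNA. Per the labels and the paper's methods, the authors trimmed reads with Trimmomatic (0.36), aligned them with STAR to mm10 and counted them per gene with HTSeq (0.9.1), and the deposited values are unnormalized read counts. The annotation and the strand setting are not given in the sources used here, so reads of antisense or overlapping genes could be split differently. Rows that name no gene took 28.4 to 85.7% of reads and were left out.

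Genes with at least 10 reads over a fit were tested with edgeR (4.0.16, TMM scaling, quasi-likelihood test, R 4.3.3), separately for null CD4, WT CD4, both CD4 backgrounds, splenic T cells and spleens, with all groups of a set sharing the estimate of spread and Benjamini-Hochberg adjustment over all genes of the fit. SE is the log2 fold change divided by the root of its F statistic, and intervals span 1.96 SE either side. CPM of CD4 libraries come from the fit of both backgrounds. Overlap of libraries between groups was examined for the members only, with no share over all genes to set beside it. Lengths are exon unions of GENCODE vM21. DESeq2 (1.42.0), other scalings and filters, left-out libraries and a replicate block were tried. Labels do not say that libraries came from separate animals, and p-values then measure the spread between these samples, which may be technical. No pair of the 88 within-group pairs was identical.

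Members and gene lists were chosen with earlier results of these data known. Text names all members, and from each list up to 3 called genes with the largest rise and up to 3 with the largest fall in the comparisons of the activating forms with empty vector in null cells, of Y665F with WT and Y665H T cells, of interleukins, and of Y665F with Y665H spleens, and the 5 genes nearest to Slc7a5. Values of such genes in other comparisons, and genes named to spell out a small count, were picked after their values were seen. Same-numbered libraries had deviations correlated over 0.1 in 30 of 30 pairs in null cells (median r 0.466) and 30 of 30 in WT cells (0.635). With both CD4 backgrounds in 1 fit 94 of 135 pairs did (median r 0.275). In splenic T cells 6 of 21 pairs did and in spleens 4 of 13, and the libraries of these 2 tissues were not taken as paired. The main fits of CD4+ cells held no replicate term all the same, and results with the block are alternatives. With the block 9.5% of genes passed with STAT5B over empty vector in null cells, against 1.52% without it. Slc7a5 stayed called there with STAT5B, N642H and Y665F, and Slc7a6 with N642H and Y665F. The tests were checked on simulated data.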

Additional observations from a re-analysis of the deposited data

Results flagged for a closer look

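Of 54 sets of at least 4 libraries of a group, examined for each member, 1 held a library that stood apart by Dixon's test. Slc38a2 in WT splenic T cells with interleukins was highest in replicate 1, at 682 CPM, where the other 3 libraries lay between 566 and 579 CPM. Chance gives about 1 such library in 20 groups. None of 18 interaction tests of the members between null and WT CD4+ cells passed.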

How the results depend on the processing

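Of 325 counts of members recomputed under another setting 276 stayed within 1.5 times the reported count. Of 529 recomputed log2 fold changes of named members 443 were taken as the same. That meant the same direction and call or, for values relative to the T-cell marker list, a shift under 1 SD within groups. Counts of members called moved as follows. With DESeq2 they were 2 for STAT5B, 3 for Y665H against STAT5B (null cells), 1 for N642H and 1 for Y665F in WT cells, and 2 for Y665F against WT and 2 for Y665F against Y665H T cells. With library totals alone Y665F against WT T cells gave 1, and with DESeq2's size factors in edgeR Y665F against Y665H T cells gave 2. Without the filter on low counts, Y665F against empty vector and Y665H against STAT5B in null cells gave 1 each. With a log2 fold change beyond 1 as well, the counts were 0 for STAT5B, 1 for N642H and 1 for Y665F in null cells, 0 for null against WT cells with empty vector, 0 for Y665F against Y665H T cells, and 0, 1 and 0 for Y665F against WT, Y665H against WT and Y665F against Y665H spleens. With the replicate block, the counts were 2 for Y665H against STAT5B in null cells and 3 for N642H and 3 for Y665F in WT cells, and beside the Slc7a1 calls given above the block changed no other call of a member in CD4+ cells. In T cells and spleens, where the replicate numbers did not pair the libraries, the block gave 0 for Y665F against Y665H T cells and 0 and 3 for Y665F against WT and against Y665H spleens. Leaving out Y665F T-cell replicates 3 and 4 together, a setting chosen after seeing the data, gave 0 for Y665F against Y665H and 7 for interleukins.

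Leaving out 1 library gave 0 to 1 members for STAT5B, 1 to 3 for N642H, 1 to 2 for Y665F and 0 to 2 for Y665H against STAT5B in null cells, 0 to 1 for N642H in WT cells, 0 to 1 for Y665F against WT and 0 to 1 against Y665H T cells, 4 to 4 for interleukins, 1 to 2 for Y665F against WT, 4 to 5 for Y665H against WT and 5 to 7 for Y665F against Y665H spleens. Relative to the T-cell marker list, 3 values in spleens turned: Slc1a4 in Y665F over WT (-0.02), and Slc7a6 (-0.73) and Slc38a1 (-0.85) in Y665F over Y665H. This scaling shifts all genes of a comparison by 1 amount, set by the markers. Beside the 3 values that turned it moved 12 of 20 by at least 1 SD within groups, and 5 stayed within that. On that scale Slc7a5 in Y665H over WT spleens was 1.82 and in Y665F over Y665H -2.0. Depth limits Slc7a11 in CD4+ cells, with 3 to 35 reads a library.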
